A study of Homo sapiens with 8 samples.

Results

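How raised FDX1 alters the response to elesclomol (ES) was measured in SUDHL-4, a human cell line that grew out of a diffuse large B-cell lymphoma and resembles germinal-centre B cells. FDX1-OE cells, which overexpress FDX1, received 5 nM ES or DMSO, and control cells, which the labels call wild type, received the same, each for 48 h. All 8 libraries of the series enter, with 2 in each of the 4 groups (FDX1-OE in ES, FDX1-OE in DMSO, control in ES and control in DMSO). The measure is the interaction, that is the change with ES (ES minus DMSO) in FDX1-OE cells minus the change with ES in control cells. The labels do not say how FDX1 was raised, whether the FDX1-OE cells are 1 clone, whether control cells hold an empty vector, or whether the 2 libraries of a group came from separate cultures. The p-values therefore measure only the spread between these libraries.

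The FDX1 product is a ferredoxin of mitochondria that hands electrons on through its iron-sulfur cluster and is needed for the lipoylation of enzymes such as pyruvate dehydrogenase. Elesclomol carries copper into cells and releases it in mitochondria, and FDX1 is known as a protein on which the drug's toxicity depends. The ATF4 programme answers amino acid, mitochondrial and ER stress, while NF-kB and interferon programmes in B cells answer immune and danger signals.

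The deposited values are FPKM (reads scaled to the length of the gene and the depth of the library), and all differences are on log2(FPKM + 1). Library totals lay between 33435438 and 35883528 reads, and 15597 genes were listed, of which 9805 reached 1 FPKM in at least 2 libraries and were tested. Calls rest on limma's two-sided test with Benjamini-Hochberg adjustment over all genes tested and a threshold of 0.05. On the first principal component, with 78% of the variance, the FDX1-OE ES libraries lay at 26.8 and 26.86, and the control ES libraries at 10.41 and 6.15. All DMSO libraries scored from -19.87 to -14.47. The control ES libraries therefore lay farther apart than the pair of any other group. Summed germinal-centre B-cell markers were between 1275.8 and 1596.9 FPKM in the 8 libraries, with 9 of 9 tested. Summed T and NK markers were between 4.1 and 8.48 FPKM, with CD3D and KLRD1 below 0.1 FPKM in every group. Of these 7 markers 4 were listed and 1 tested, and the tested marker was called higher with ES in both genotypes. It rose by log2 0.35 in FDX1-OE cells and 0.60 in control cells. Summed epithelial and stromal markers were between 1.1 and 3.49 FPKM, with 2 of 9 tested. FDX1 itself was at 82.5 and 84.8 FPKM in FDX1-OE cells in ES, 72.4 and 69.9 FPKM in FDX1-OE cells in DMSO, 21.3 and 21.4 FPKM in control cells in ES, and 25.6 and 22.2 FPKM in control cells in DMSO. Every FDX1-OE library lay above every control library, though transgene reads cannot be told from endogenous ones.

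LMO2 and HMGCS1 responded in FDX1-OE cells only, and CHAC1 and TRIB1 responded in both genotypes but further in FDX1-OE cells. LMO2, a transcription cofactor expressed in germinal-centre B cells, was at 13.9 FPKM in both FDX1-OE ES libraries, 5.83 and 5.92 FPKM in FDX1-OE DMSO, 7.74 and 7.2 FPKM in control ES, and 8.23 and 7.35 FPKM in control DMSO. Its 2 FDX1-OE ES libraries stood above all others, while the ES and DMSO libraries of control cells overlapped. Both FDX1-OE DMSO libraries lay below every control library. FDX1-OE minus control cells was log2 -0.35 in DMSO (limma adjusted p = 0.0663) and 0.81 in ES, so the lower start adds to the interaction. LMO2 thus rose with ES in FDX1-OE cells (log2 1.11) and was not called in control cells (log2 -0.05, 95% interval -0.21 to 0.10), and its interaction was 1.17 (SE 0.10, limma adjusted p = 0.00121). HMGCS1, an early enzyme of cholesterol synthesis, was also called in FDX1-OE cells only, without the lower start. It was at 28.3 and 29.1 FPKM in FDX1-OE ES, 18.9 and 20.1 FPKM in FDX1-OE DMSO, 18.8 and 18.5 FPKM in control ES, and 21 and 19.0 FPKM in control DMSO. Only the FDX1-OE ES libraries stood apart. The interaction of HMGCS1 was 0.63 (SE 0.09, limma adjusted p = 0.00718).

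CHAC1, an ATF4 target that degrades glutathione, changed in both genotypes, and more in FDX1-OE cells. It was at 4.51 and 4.01 FPKM in FDX1-OE ES and 0.603 and 0.691 FPKM in FDX1-OE DMSO, and at 1.52 and 1.6 FPKM in control ES and 0.766 and 0.824 FPKM in control DMSO. ES libraries of either genotype lay above all DMSO libraries, and those of FDX1-OE cells lay highest. CHAC1 rose by log2 1.68 in FDX1-OE cells and by 0.51 in control cells (interaction 1.16, SE 0.13, limma adjusted p = 0.00217). TRIB1, a pseudokinase scaffold that promotes protein degradation, went the other way, with 3.16 and 3.08 FPKM in FDX1-OE ES, 8.06 and 7.34 FPKM in FDX1-OE DMSO, 4.34 and 4.95 FPKM in control ES, and 6.93 and 6.41 FPKM in control DMSO. No ES library reached a DMSO library, and FDX1-OE cells in ES were lowest. TRIB1 fell in both genotypes, by log2 -1.08 in FDX1-OE cells and -0.44 in control cells (interaction -0.63, SE 0.12, limma adjusted p = 0.0162). The TRIB1 call was lost without control DMSO replicate 2 (limma adjusted p = 0.0625), FDX1-OE DMSO replicate 1 (0.0572), control ES replicate 2 (0.0712) or FDX1-OE ES replicate 1 (0.0525), whereas LMO2, HMGCS1 and CHAC1 were called without each of the 8 libraries.

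**Figure D1:**
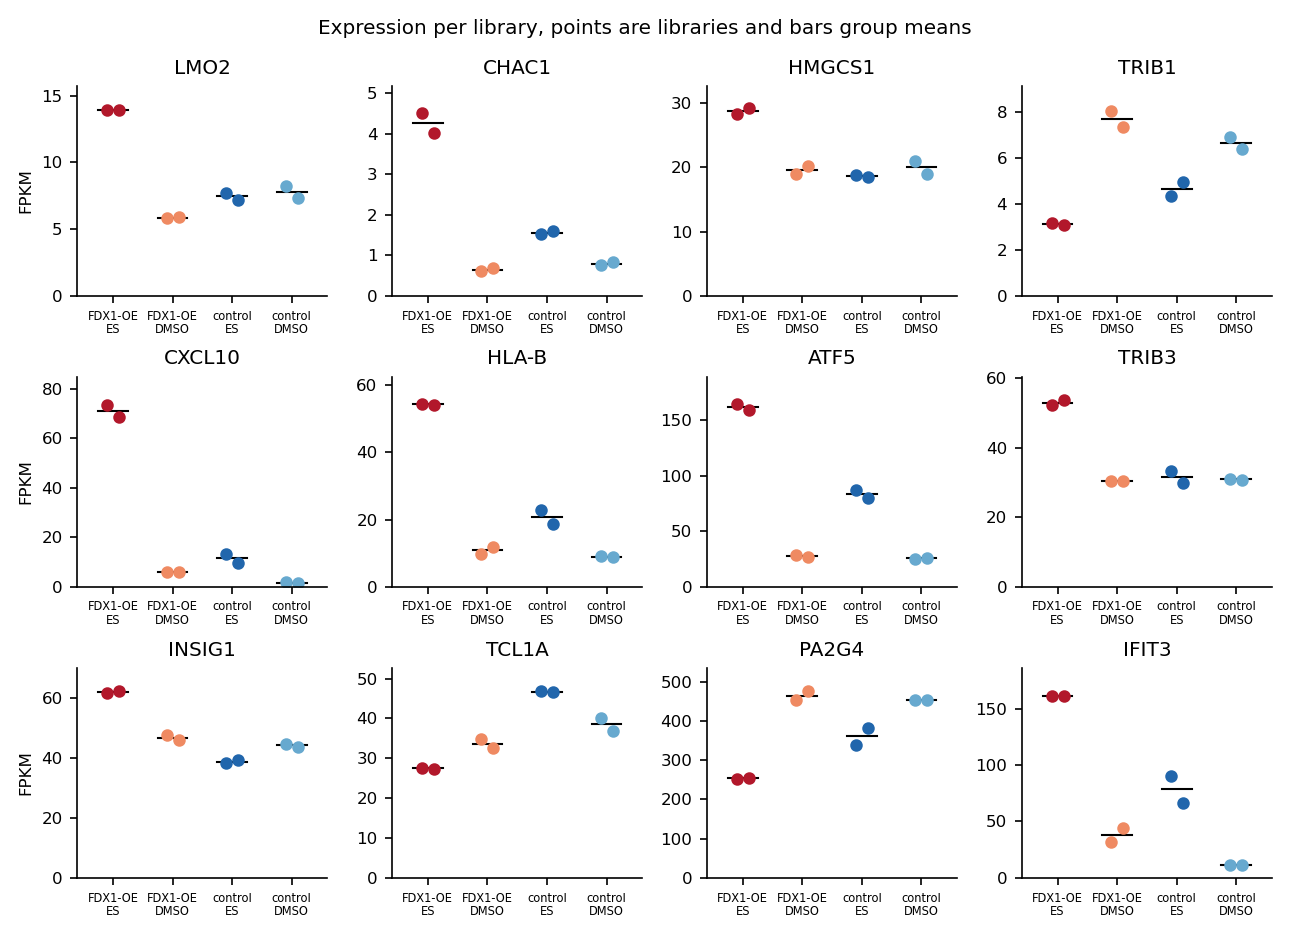
FPKM of 12 genes (vertical axes, from 0) in the 4 groups named along the horizontal axes. Points are the 2 libraries of a group and black bars their mean. LMO2, HMGCS1 and TRIB3 stand apart in FDX1-OE ES libraries, CHAC1, CXCL10, HLA-B and ATF5 rise in both genotypes and further in FDX1-OE cells, INSIG1 and TCL1A move in opposite directions, and IFIT3 starts higher in FDX1-OE DMSO than in control DMSO.

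Across the genome the drug had the same direction in both genotypes far more often than not. ES changed 5510 genes in FDX1-OE cells (56.2% of those tested, 37.0% higher and 19.2% lower) and 3767 in control cells (38.4%, 25.5% higher and 12.9% lower). Of the 3129 genes called in both, 3115 moved the same way and 14 in opposite ways. The responses correlated across the 9805 genes with r = 0.84 (Spearman rho 0.813), a description over genes, which are not independent replicates. These 2 responses share no library.

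The response in FDX1-OE cells was larger on average. An orthogonal line through the origin had a slope of 1.49 (SE 0.145 from leaving out each library in turn, range 1.37 to 1.56), so that a gene on this line moved 1.49 log2 units in FDX1-OE cells for each unit in control cells. A least-squares slope corrected for the measurement error of the control response was 1.30 (SE 0.0798, range 1.25 to 1.35), and the uncorrected one was 1.2. Every one of these slopes lay above 1. In bulk RNA a larger change per cell and a change in a larger share of the cells cannot be told apart.

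The interaction was called for 422 genes (4.3% of those tested), 319 higher (3.25%) and 103 lower (1.05%), and 40 of these differed by at least 2 times, all higher. With RLE scaling, which moves the median interaction of all genes to -0.02 against 0.03 as deposited, the split was 251 higher and 274 lower. The count fell without most single libraries, to 93 without control ES replicate 2, 124 without FDX1-OE ES replicate 1, 142 without control DMSO replicate 1, 146 without control DMSO replicate 2, 156 without FDX1-OE DMSO replicate 2, 187 without FDX1-OE DMSO replicate 1 and 219 without FDX1-OE ES replicate 2, and it was 625 without control ES replicate 1. Of the 64 called genes picked by the naming rules given below, 29 were called without each of the 8 libraries. Other called genes named here are not in that count.

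Sorted by the calls within each genotype, 222 of the 422 genes responded more in FDX1-OE cells, having moved the same way in both genotypes. Of these, 177 rose, with a median log2 response of 1.18 in FDX1-OE cells and 0.51 in control cells, and 45 fell, with medians of -0.67 and -0.30. A further 174 were called in FDX1-OE cells only, 124 of them rising (medians 0.66 in FDX1-OE cells and 0.08 in control cells) and 50 falling (-0.41 and -0.04). The control response of 80 of these 174 had a 95% interval within 1.2 times either way, 39 with a higher and 41 with a lower interaction. The remainder had 12 genes called in opposite directions, 14 called in control cells only and 0 that responded less in FDX1-OE cells. At an unadjusted interaction p below 0.05 there were 38 such smaller responses, and by limma voom on recovered reads 8.

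**Figure D2:**
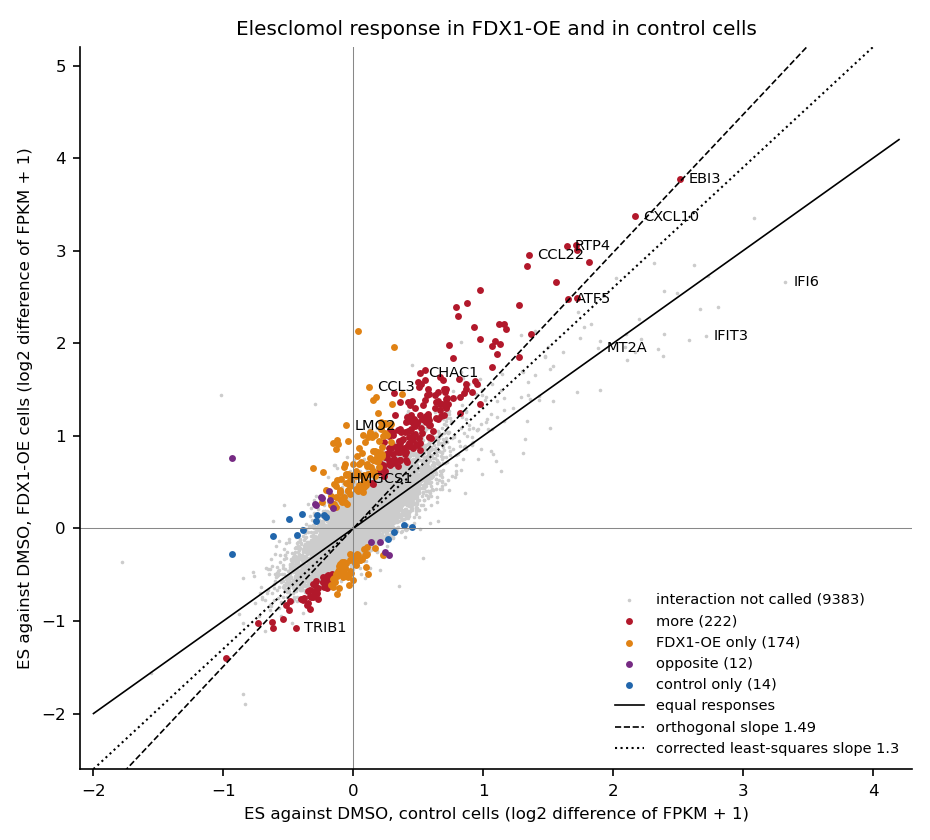
ES response (log2 difference of FPKM + 1) of each gene tested in FDX1-OE cells (vertical) against control cells (horizontal). Colours give the classes of the 422 genes called in the interaction, grey the others, the solid line equal responses, and the broken and dotted lines the slopes of 1.49 and 1.3. Genes that responded more and rose lie mostly on or above the steeper lines, those that responded more and fell on or below them, genes called in FDX1-OE cells only lie near 0 on the horizontal axis, and IFI6 and IFIT3 lie below all 3 lines.

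A departure from simple scaling was tested for each gene as the response of FDX1-OE cells minus 1.49 times that of control cells. It was called for 26 genes (0.265%), 13 above the line and 13 below it (0.133%). The slope entered as a fixed number, so the p-values for departure leave out its SE of 0.145. That omission weighs most for genes with a large control response, such as the interferon-stimulated genes. At this slope 1 of the 222 genes that responded more departed from the line, SQSTM1, and 8 of the 174 called in FDX1-OE cells only did so, among them LMO2, CCL3, CSAG1, TRIB3, PSAT1, HMGCS1 and P2RX5, which were listed after their values were seen. With the corrected slope of 1.30 the count was 44, of which 34 lay above and 10 below, and 23 genes were called with both slopes. At that slope 14 of the 222 genes that responded more departed, among them CHAC1 (limma adjusted p = 0.0276), TRAF1, CCL22, HLA-E and JUND (0.0366 each) and CXCL11 (0.0476), as did 16 of the 174 called in FDX1-OE cells only. Which genes that responded more went beyond scaling therefore depended on the slope. The count was 0 without control DMSO replicate 1, 1 without FDX1-OE ES replicate 2, 4 without control DMSO replicate 2 or FDX1-OE ES replicate 1, 7 without control ES replicate 2 and 44 without FDX1-OE DMSO replicate 1. For the rest of the 174 genes no departure from the line of 1.49 was called. For them this test did not tell a small control response on the line from no control response.

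SQSTM1, the autophagy receptor p62, was at 89.2 and 90.6 FPKM in FDX1-OE ES, 44.4 and 45.0 FPKM in FDX1-OE DMSO, 55.0 and 51.4 FPKM in control ES, and 44.7 and 42.8 FPKM in control DMSO. Its ES libraries lay above its DMSO libraries in both genotypes. It rose by log2 0.99 in FDX1-OE cells and 0.28 in control cells (interaction 0.72, SE 0.08, limma adjusted p = 0.00211), more than scaling by 1.49 gives (limma adjusted p = 0.0404). CCL3, a chemokine for monocytes and T cells, was at 6.71 and 6.8 FPKM in FDX1-OE ES and between 1.54 and 1.91 FPKM in the other 6 libraries. P2RX5, an ATP-gated channel of lymphocytes, was at 146.0 and 144.3 FPKM in FDX1-OE ES and between 97.8 and 112.5 FPKM in the other 6. In both genes the FDX1-OE ES libraries alone stood apart (interactions 1.41 and 0.65, SE 0.11 and 0.08, limma adjusted p = 0.00121 and 0.00308). CCL3 has near-identical copies in the genome, as has CSAG1, so that counting could split their reads.

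Chemokines and cytokines, the secreted signals that draw and instruct other immune cells, had the highest median interaction of the 28 lists. Of 14 tested members 10 had a higher interaction and 0 a lower one, with a median of 1.13 beside 0.03 over all genes tested. The count of each list is to be set against 3.25% higher and 1.05% lower among all genes. Median responses were 2.03 in FDX1-OE cells and 1.22 in control cells, and the higher count stayed between 8 and 10 without each single library. CXCL10, which attracts T cells through CXCR3, was at 73.4 and 68.4 FPKM in FDX1-OE ES, 6.04 and 5.85 FPKM in FDX1-OE DMSO, 13.3 and 9.76 FPKM in control ES, and 1.79 and 1.73 FPKM in control DMSO. The 4 groups did not overlap, and FDX1-OE DMSO already lay above control DMSO (log2 1.33, limma adjusted p = 0.000304). The interaction of CXCL10 was 1.2 (SE 0.16, limma adjusted p = 0.0042), and by voom, a scale of ratios with no added 1, it was 0.88 (adjusted p = 0.081).

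CCL22, which attracts cells through CCR4, was at 6.69 and 8.14 FPKM in FDX1-OE ES, 0.0292 and 0.144 FPKM in FDX1-OE DMSO, 1.8 and 2.24 FPKM in control ES, and 0.148 and 0.22 FPKM in control DMSO. EBI3, a subunit of interleukins of the IL-12 family, was at 42.6 and 39.7 FPKM in FDX1-OE ES, 2.07 FPKM in both FDX1-OE DMSO libraries, 17.0 and 10.4 FPKM in control ES, and 1.41 and 1.61 FPKM in control DMSO. ES libraries were above DMSO libraries in each genotype, with FDX1-OE ES highest for either gene. Their interactions were 1.60 (SE 0.16, limma adjusted p = 0.00211) and 1.26 (SE 0.23, limma adjusted p = 0.0157). The EBI3 call was lost without control DMSO replicate 1 (limma adjusted p = 0.0507), control DMSO replicate 2 (0.0623) or FDX1-OE ES replicate 1 (0.0624). Lymphotoxins showed the pattern too, with LTA at 11.9 and 11.4 FPKM in FDX1-OE ES against 1.84 and 1.73 FPKM in FDX1-OE DMSO, and 5.81 and 4.46 FPKM in control ES against 1.88 and 2.55 FPKM in control DMSO (interaction 1.25, SE 0.17, limma adjusted p = 0.00469). CXCL11 (interaction 1.5) and TNFSF10, the death ligand TRAIL (1.29), were called on log2(FPKM + 1) but not by voom (adjusted p = 0.0582 and 0.45). In DMSO, CXCL11 was at 2.78 and 2.06 FPKM in FDX1-OE cells and 0.642 and 1.09 FPKM in control cells. EBI3 was not called by voom either (adjusted p = 0.0981). Summed myeloid markers moved with this group, at 36.7 and 39.7 FPKM in FDX1-OE ES, 8.18 and 7.07 FPKM in FDX1-OE DMSO, 16.5 and 12.3 FPKM in control ES, and 4.3 and 4.03 FPKM in control DMSO. Of 7 myeloid markers 6 were listed and 2 tested. ITGAM was below 0.1 FPKM in both FDX1-OE ES libraries and CSF1R in both control ES libraries. In FDX1-OE ES nearly all of the sum came from FCER1G, a subunit of Fc receptors at 18.3 and 22.3 FPKM, and CD68, a lysosomal protein at 18 and 17.1 FPKM. CD68 had a called interaction (1.1, SE 0.12, limma adjusted p = 0.00211). The part of these markers in the result was not tested.

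NF-kB targets, which include receptors and inhibitors of the pathway besides cytokines, had 13 of 23 tested members with a higher interaction and 0 with a lower one, with a median of 0.52. Of the 13, 10 responded more and 3 were called in FDX1-OE cells only. CCL3 and CCL22 are members of this list and of the chemokines and cytokines, so the results of these lists are not independent. TRAF1, an adaptor of TNF receptors, was at 13.4 and 14.4 FPKM in FDX1-OE ES, 3.44 and 3.67 FPKM in FDX1-OE DMSO, 5.63 and 4.3 FPKM in control ES, and 3.16 and 2.93 FPKM in control DMSO. The FDX1-OE ES libraries were above all others and the DMSO libraries of the genotypes lay close together (interaction 1.15, SE 0.14, limma adjusted p = 0.00326). Other members with a called interaction were CD40, the costimulatory receptor of B cells (0.71), BCL2A1, an antiapoptotic protein (0.98), CD83 (0.61), NFKB2 (0.56) and RELB (0.60), both subunits of NF-kB. In DMSO 0 of the 23 members differed between the genotypes at 0.428% higher among all genes, and the list's median difference there was -0.02. The count of higher members was 8 without control DMSO replicate 1, control DMSO replicate 2, FDX1-OE DMSO replicate 2 or control ES replicate 2, and 7 without FDX1-OE ES replicate 1.

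MHC class I genes, whose products present peptides to T cells, had 4 of 15 tested members higher and 0 lower, beside 3.25% and 1.05% of all genes (median 0.21), and 15 of 15 estimates above 0. HLA-B was at 54.4 and 54.0 FPKM in FDX1-OE ES, 9.91 and 12 FPKM in FDX1-OE DMSO, 22.8 and 18.8 FPKM in control ES, and 9.09 and 8.84 FPKM in control DMSO. Its ES libraries did not overlap its DMSO libraries, and FDX1-OE ES lay above control ES (interaction 1.09, SE 0.14, limma adjusted p = 0.00362). HLA-E and HLA-C followed with interactions of 0.79 and 0.66. HLA genes resemble each other, so reads may be shared among them.

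The ATF4 stress response, which supplies amino acids and restores translation after stress, was amplified as well. Of 26 tested members 12 had a higher and 0 a lower interaction, with a median of 0.40, a median response of 0.57 in FDX1-OE cells and of 0.22 in control cells. ATF5, a transcription factor of the mitochondrial stress response, was at 164.4 and 158.9 FPKM in FDX1-OE ES, 29.1 and 27.3 FPKM in FDX1-OE DMSO, 87.1 and 79.8 FPKM in control ES, and 25.3 and 26.4 FPKM in control DMSO. ES libraries of both genotypes were far above DMSO, and the genotypes lay close together in DMSO (interaction 0.83, SE 0.09, limma adjusted p = 0.00211), and no departure from scaling by 1.49 was called (adjusted p 0.942). TRIB3, a pseudokinase that restrains ATF4, was at 52.1 and 53.6 FPKM in FDX1-OE ES and between 29.7 and 33.2 FPKM in the other 6 libraries. PSAT1, an enzyme of serine synthesis, was at 75.2 and 77.9 FPKM in FDX1-OE ES and between 49.9 and 55.7 FPKM in the other 6. Both were called in FDX1-OE cells only and departed from the line (interactions 0.75 and 0.64, limma adjusted p for departure 0.0248 and 0.0288).

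Among the other called members PPP1R15A, which restarts translation, had an interaction of 0.69, SESN2, an inhibitor of mTORC1, 0.64, and WARS1, a tRNA synthetase that interferon also induces, 0.61. DDIT3, which encodes CHOP, was at 34.8 and 32.9 FPKM in FDX1-OE ES, 18.4 and 17.4 FPKM in FDX1-OE DMSO, 22.2 and 22.9 FPKM in control ES, and 15.2 and 19.3 FPKM in control DMSO. Its interaction of 0.51 missed the threshold (SE 0.13, limma adjusted p = 0.0537). The list's count was 5 without control DMSO replicate 2, FDX1-OE DMSO replicate 2, control ES replicate 2 or FDX1-OE ES replicate 1. The neighbouring programme of the ER unfolded protein response had 2 of 20 members higher, beside 3.25% of all genes (median 0.18), HERPUD1 and EDEM1, which act in the disposal of misfolded proteins, and 0 of the 2 were called without control DMSO replicate 1 or 2, FDX1-OE DMSO replicate 1 or 2, control ES replicate 2 or FDX1-OE ES replicate 1.

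**Figure D3:**
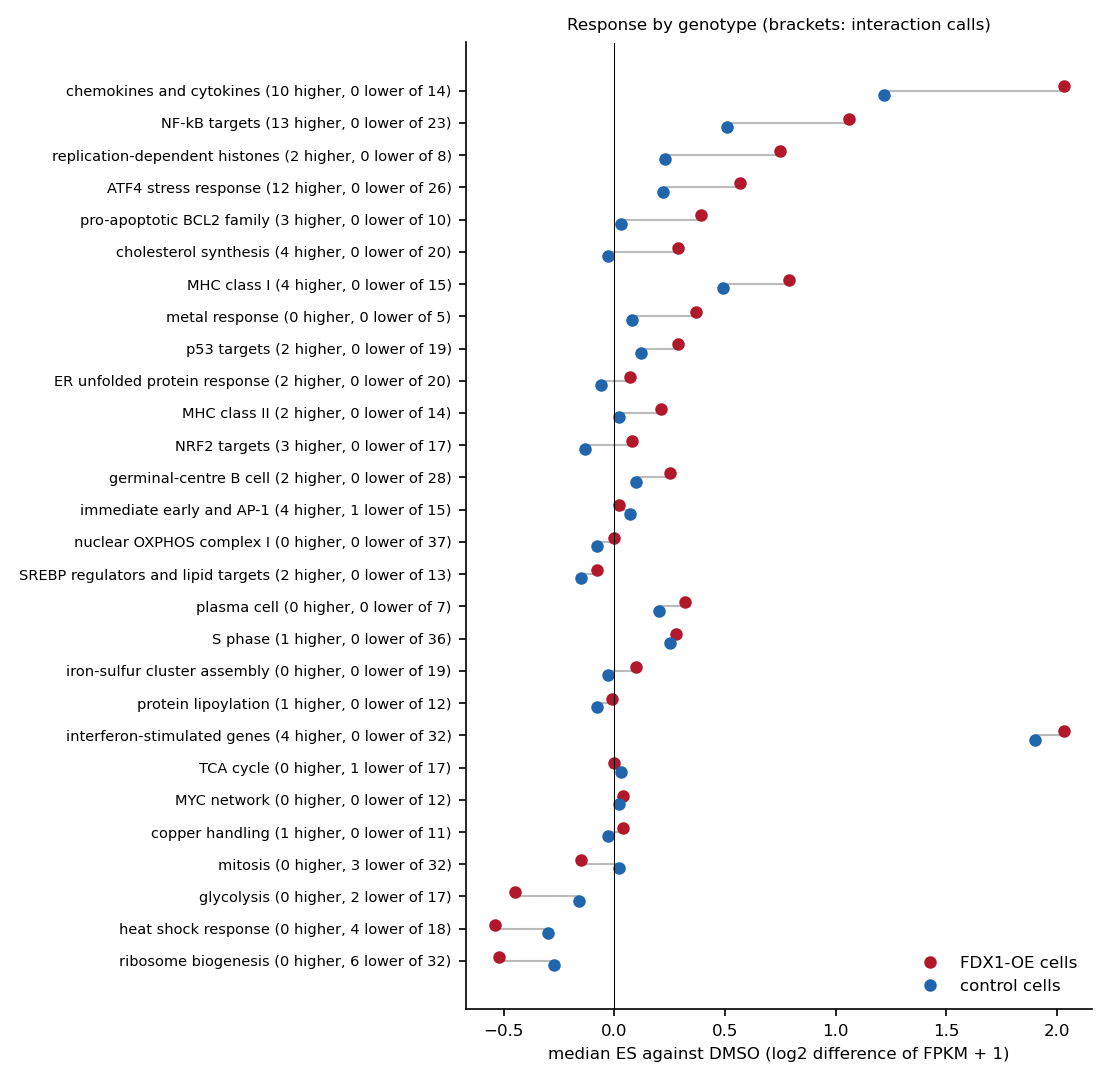
Median ES response (log2 difference of FPKM + 1, horizontal axis) of the tested members of 28 gene lists in FDX1-OE cells (red, upper point) and control cells (blue, lower point), ordered by the median interaction. Brackets give how many members had a called interaction. Chemokines, NF-kB targets and the ATF4 list moved further to the right in FDX1-OE cells, ribosome biogenesis and heat shock further to the left, and interferon-stimulated genes lay near 2 in both.

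Cholesterol synthesis is among the lists whose median responded in FDX1-OE cells and lay near 0 in control cells, as did MHC class II, pro-apoptotic and mitosis genes. A median near 0 does not mean that no member moved: in control cells 4 pro-apoptotic genes rose and 2 fell. Of 20 tested enzymes of cholesterol synthesis 12 rose and 1 fell with ES in FDX1-OE cells, where 37.0% of all genes rose and 19.2% fell. In control cells 3 rose and 4 fell, where 25.5% and 12.9% of all genes did. The medians were 0.29 in FDX1-OE cells and -0.03 in control cells. The interaction was higher for 4 members and lower for 0, with a median of 0.30 and 19 of 20 estimates above 0. TM7SF2, a sterol reductase, was at 76.2 and 72.3 FPKM in FDX1-OE ES, 38.7 and 35.2 FPKM in FDX1-OE DMSO, 57.0 and 47.0 FPKM in control ES, and 48.1 and 47.6 FPKM in control DMSO. It was highest in FDX1-OE ES and lowest in FDX1-OE DMSO, and its control groups overlapped (interaction 0.88, SE 0.12, limma adjusted p = 0.00451). MVD and IDI1, enzymes of the mevalonate route, joined HMGCS1 with interactions of 0.65 and 0.47. The count was 2 without control DMSO replicate 1 or 2, FDX1-OE DMSO replicate 2, control ES replicate 2 or FDX1-OE ES replicate 2.

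INSIG1, which holds the sterol sensor in the endoplasmic reticulum and is itself a target of that pathway, changed in opposite directions. It was at 61.9 and 62.6 FPKM in FDX1-OE ES and 47.7 and 46.0 FPKM in FDX1-OE DMSO, but at 38.3 and 39.3 FPKM in control ES and 44.8 and 43.8 FPKM in control DMSO. ES libraries lay above DMSO libraries in FDX1-OE cells and below them in control cells (log2 0.40 and -0.19, interaction 0.59, SE 0.07, limma adjusted p = 0.00308). SCD, which desaturates fatty acids, was at 66.2 and 59.7 FPKM in FDX1-OE ES and 66.7 and 65.9 FPKM in FDX1-OE DMSO, and at 48.9 and 50.8 FPKM in control ES and 66.7 and 68.7 FPKM in control DMSO. It fell with ES in control cells alone (interaction 0.36, SE 0.08, limma adjusted p = 0.0412), a call that held without 1 of the 8 libraries only, FDX1-OE ES replicate 2, with adjusted p up to 0.128 without the others. Of 13 regulators and lipid targets 2 were higher, INSIG1 and SCD, with a median of 0.07.

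Other genes called in opposite directions numbered 11, and the 12 together were 8 with a higher and 4 with a lower interaction. TMSB4X, which binds actin monomers, was at 590.0 and 581.0 FPKM in FDX1-OE ES and 479.4 and 453.8 FPKM in FDX1-OE DMSO, and at 475.6 and 458.4 FPKM in control ES and 586.2 and 519.1 FPKM in control DMSO. TCL1A, an activator of AKT in B cells, was at 27.6 and 27.4 FPKM in FDX1-OE ES and 34.8 and 32.6 FPKM in FDX1-OE DMSO, and at 46.9 and 46.6 FPKM in control ES and 40.2 and 36.8 FPKM in control DMSO. The 2 genes mirrored each other: ES raised TMSB4X in FDX1-OE cells and lowered it in control cells, and did the reverse to TCL1A, with no overlap of ES and DMSO within a genotype. Their interactions were 0.57 (SE 0.09, limma adjusted p = 0.00836) and -0.56 (SE 0.08, limma adjusted p = 0.00866), and both were called without each of the 8 libraries.

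Further members of the opposite class were named after their values were seen. CHPF2, DDIT4, GPR89A, MCRIP1 and RPL37A had interactions between 0.37 and 1.69, and FXYD5, SGTA and MDH2, the mitochondrial malate dehydrogenase, between -0.50 and -0.28. Each of these genes lost its call without at least 1 library, and GPR89A (5.15 and 2.13 FPKM in FDX1-OE DMSO) has a near-identical copy, as ribosomal protein genes such as RPL37A have pseudogenes. The opposite class held 2 genes without control DMSO replicate 1 or control ES replicate 2, 4 without FDX1-OE DMSO replicate 2, or without FDX1-OE ES replicate 1, and 22 without control ES replicate 1.

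Called in control cells only were 14 genes. LEF1, a transcription factor of the WNT pathway, was at 43.8 and 46.6 FPKM in FDX1-OE ES and 43.8 and 45.5 FPKM in FDX1-OE DMSO, and at 54.9 and 56.3 FPKM in control ES and 39.0 and 41.8 FPKM in control DMSO. RGS8, an inhibitor of G-protein signals, was at 8.44 and 7.4 FPKM in FDX1-OE ES and 8.26 and 8.52 FPKM in FDX1-OE DMSO, and at 3.85 and 3.79 FPKM in control ES and 6.74 and 6.09 FPKM in control DMSO. ES and DMSO libraries overlapped in FDX1-OE cells and were apart in control cells for both genes. Their interactions of -0.44 and 0.54 were called (limma adjusted p = 0.018 and 0.0279), though without control ES replicate 2 both were lost (0.0742 and 0.0992), as they were without control DMSO replicate 1 (0.07 and 0.0927), FDX1-OE DMSO replicate 2 (0.077 and 0.0728) or FDX1-OE ES replicate 1 (0.0684 and 0.0902), and RGS8 also without FDX1-OE DMSO replicate 1 (0.0765). The class held 0 genes without control ES replicate 2, 1 without control DMSO replicate 1 or FDX1-OE DMSO replicate 2, 2 without FDX1-OE DMSO replicate 1, or without FDX1-OE ES replicate 1, 7 without control DMSO replicate 2 or FDX1-OE ES replicate 2, and 38 without control ES replicate 1.

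On log2(FPKM + 1), interferon-stimulated genes had a lower median interaction than the chemokines. Of 32 tested members 31 rose in FDX1-OE cells and 30 in control cells, beside 37.0% and 25.5% of all genes. The medians were alike, at 2.03 and 1.90, and the interaction was higher for 4 and lower for 0, with a median of 0.00. In DMSO 3 of the 14 chemokines and cytokines were already higher in FDX1-OE cells, and 21 of the 32 interferon genes, beside 0.428% of all genes. The ratio of the responses within the list was 1.02 as an orthogonal slope (0.904 to 1.13 without each library in turn), beside 1.71 for chemokines and cytokines (1.58 to 1.85), 1.82 for NF-kB targets (1.71 to 1.93) and 1.84 for the ATF4 list (1.74 to 1.93). On log2(FPKM + 1) these ranges of the interferon list and of the other 3 lists do not meet. They are ranges over left-out libraries and not confidence intervals, and slopes within lists were not taken on another scale.

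IFIT3, an antiviral protein that binds other IFIT proteins, was at 161.2 and 161.5 FPKM in FDX1-OE ES, 31.6 and 44.1 FPKM in FDX1-OE DMSO, 90.5 and 66.4 FPKM in control ES, and 11 FPKM in both control DMSO libraries. The groups did not overlap, and each FDX1-OE group lay above the control group of the same treatment. IFIT3 rose by log2 2.08 in FDX1-OE cells and 2.71 in control cells, and differed in DMSO by 1.68. IFI6, a mitochondrial and ER protein that limits cell death, was at 143.9 and 150.1 FPKM in FDX1-OE ES, 18 and 27.6 FPKM in FDX1-OE DMSO, 82.2 and 61.5 FPKM in control ES, and 6.73 and 5.71 FPKM in control DMSO. It rose by 2.66 in FDX1-OE cells and 3.32 in control cells. Their interactions of -0.63 and -0.66 were not called (SE 0.21 and 0.24, limma adjusted p = 0.111 and 0.139), but both lay below the line of scaled responses (adjusted p for departure 0.0236 each). Of the 13 genes below that line 9 were in the interferon list, among them IFI6, IFIT3, OAS2, IFIT2, IFIT1, SAMD9L, IFI44L and IFI44, and the other 4 were PLSCR1 and SP110, which interferon also induces, TCL1A and LEF1. With the slope of 1.30, 7 of the 10 genes below were in the list.

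The reading of this list depended on the scale. By voom, where ratios have no added 1, the list's median interaction was -0.28, with 1 member higher and 4 lower, and with a pseudocount of 0.1 FPKM it was -0.22 with 0 and 0, while with a pseudocount of 5 FPKM it was 0.27 with 8 and 0. By voom 4 of the 8 genes that responded less in FDX1-OE cells were in the list, among them IFIT1 (interaction -0.70, adjusted p = 0.0337), IFIT3 (-0.70, 0.0364) and OAS2 (-0.70, 0.0293), and those outside it were IFI16, SP110, IFNL3 and TAF3, all named after their values were seen. IFNL3 was at 0.127 and 0.0 FPKM in control DMSO, so its voom value rests on a group near the floor, and its interaction on log2(FPKM + 1) was 0.40 (limma adjusted p = 0.246). Without FDX1-OE DMSO replicate 1, the library with the lower interferon genes of its pair, 2 members were higher and 5 lower. The members with a higher interaction on log2(FPKM + 1) were RTP4, IFIT5, OAS3 and ISG20, and by voom ISG20 alone of them was called (0.52, adjusted p = 0.047). RTP4 was at 10.3 and 11.7 FPKM in FDX1-OE ES, 0.265 and 0.658 FPKM in FDX1-OE DMSO, 3.36 and 2.16 FPKM in control ES, and 0.211 and 0.167 FPKM in control DMSO. IFIT5 was at or below 0.0352 FPKM in all DMSO libraries. The 4 counted as higher were 2 without control DMSO replicate 1 or 2, FDX1-OE DMSO replicate 1 or control ES replicate 2, and 1 without FDX1-OE ES replicate 1.

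**Figure D4:**
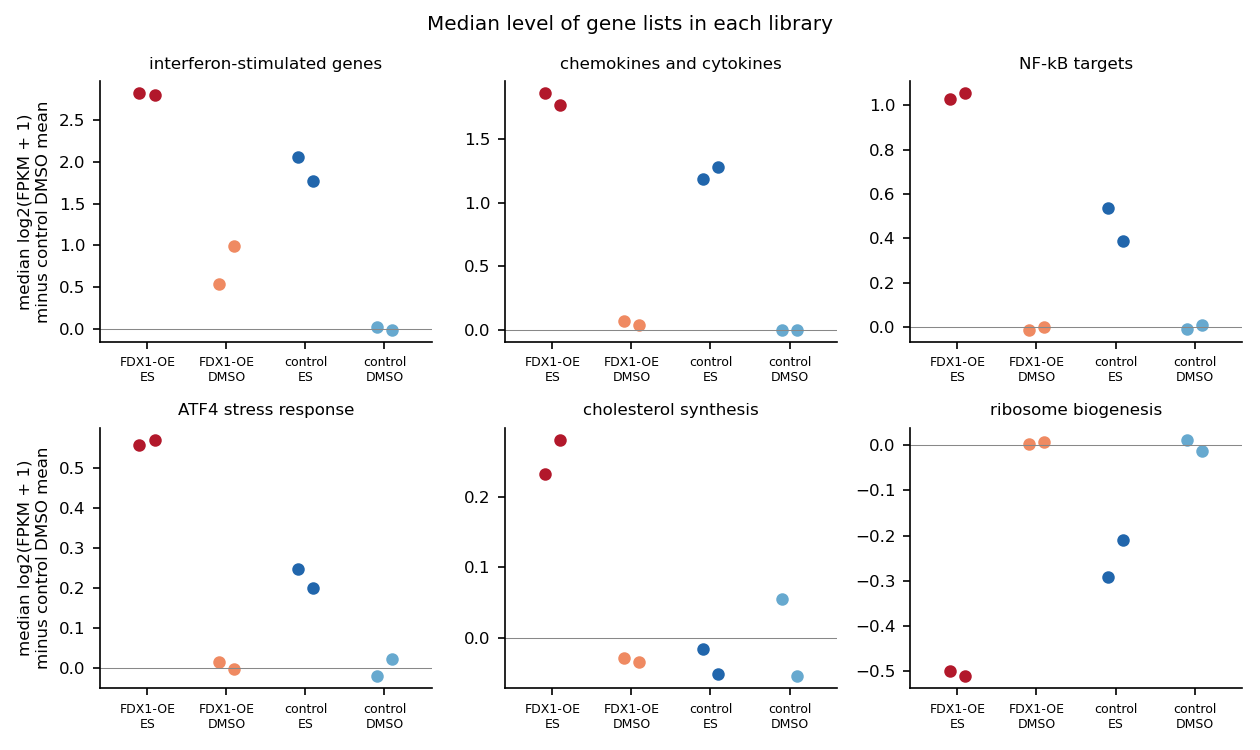
Median level of 6 gene lists in each library, as log2(FPKM + 1) minus the mean of the control DMSO libraries (vertical axes, which differ between panels), by group. Points are libraries. Interferon-stimulated genes were already raised in FDX1-OE DMSO, the NF-kB, ATF4 and chemokine lists lay near 0 in both DMSO groups and highest in FDX1-OE ES, and cholesterol synthesis stood apart in FDX1-OE ES alone.

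Promoter letters were compared between the lists whose members moved together. Stretches of 4 promoters are shown, from RefSeq on GRCh38.p14, each read 5′ to 3′ on the strand of the gene with motif matches in capitals. They stand for an interferon gene whose response was not larger in FDX1-OE cells, and for a chemokine and an ATF4 target whose responses were larger in FDX1-OE cells. The lymphotoxin gene LTB is shown for its kB site, and its response is not given here.
IFIT3 (chr10:89327829-89327896, plus strand): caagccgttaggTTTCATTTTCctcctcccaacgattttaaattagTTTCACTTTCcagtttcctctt
CXCL10 (chr4:76023653-76023730, minus strand): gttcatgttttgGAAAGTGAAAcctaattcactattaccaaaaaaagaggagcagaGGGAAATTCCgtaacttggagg
LTB (chr6:31582486-31582527, minus strand): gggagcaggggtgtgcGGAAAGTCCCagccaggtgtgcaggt
CHAC1 (chr15:40953242-40953289, plus strand): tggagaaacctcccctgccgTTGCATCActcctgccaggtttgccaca
The capitals mark GAAANNGAAA, the core of the interferon-stimulated response element, in IFIT3 and at the 5′ end of the CXCL10 stretch, GGGANNTTCC, a kB site, in LTB and at the 3′ end of CXCL10, and TGATGNAA, the core that ATF4 binds, in CHAC1, each on either strand.

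These letters were searched on both strands in the 250 bases before the start of each gene, counting a gene once whatever the overlap of matches, and 8079 of the 9805 tested genes had a promoter in the table. GAAANNGAAA was found in 19 of 25 interferon-stimulated genes (76.0%), 6 of 12 MHC class I genes (50%), 3 of 12 chemokines and cytokines (25.0%) and 1 of 18 NF-kB targets (5.56%), beside 3.61% of all promoters. In MHC class I 4 of 15 tested members had a higher interaction, beside 3.25% of all genes, with a median of 0.21. A link between motif and response was not tested. GGGANNTTCC was found in 7 of the 18 NF-kB targets (38.9%), 3 of the 12 chemokines and cytokines (25.0%) and 2 of the 25 interferon-stimulated genes (8.0%), beside 1.86% of all. TGATGNAA was found in 4 of 22 ATF4 genes (18.2%), beside 2.17% of all. The sterol element TCACNCCAC was found in 0 of 15 cholesterol synthesis genes, beside 1.27% of all, and no match says only that these letters are not in this window. A match is a description of the letters and not a binding site.

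Lower interactions were fewer than higher ones on the deposited scaling, but not with RLE scaling (274 lower and 251 higher). PA2G4, a nucleolar protein tied to growth, was at 251.6 and 255.4 FPKM in FDX1-OE ES, 453.3 and 475.3 FPKM in FDX1-OE DMSO, 339.1 and 382.9 FPKM in control ES, and 453.3 and 453.9 FPKM in control DMSO. ES libraries lay below DMSO libraries in both genotypes, lowest in FDX1-OE cells (log2 -0.87 and -0.33, interaction -0.54, SE 0.08, limma adjusted p = 0.00893), and the call held without each single library. Ribosome biogenesis genes, which build ribosomes in the nucleolus, fell with ES. Of 32 members 31 were called lower in FDX1-OE cells and 20 in control cells, beside 19.2% and 12.9% of all genes. Their medians were -0.52 and -0.27. Their interaction was lower for 6 and higher for 0, with a median of -0.25, and 31 of the 32 estimates were below 0. NCL, nucleolin, was at 188.7 and 173.1 FPKM in FDX1-OE ES and 305.1 and 302.4 FPKM in FDX1-OE DMSO, and at 220.5 and 247.0 FPKM in control ES and 289.8 and 288.2 FPKM in control DMSO (interaction -0.44, SE 0.09, limma adjusted p = 0.0244). No ES library of NCL reached its DMSO libraries. The count of 6 rested on all libraries: it was 0 without control DMSO replicate 1, FDX1-OE DMSO replicate 2 or control ES replicate 2, 1 without control DMSO replicate 2 or FDX1-OE DMSO replicate 1, 2 without FDX1-OE ES replicate 1 and 3 without FDX1-OE ES replicate 2, and it was 15 with RLE scaling.

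Heat shock genes, chaperones that fold proteins and their partners, had 4 of 18 members lower and 0 higher (median -0.20, 7 lower with RLE scaling): HSP90AB1, HSPA8, STIP1 and FKBP4. Not all members leaned this way, as 4 of the 18 estimates were above 0. STIP1, which links HSP70 to HSP90, was at 104.8 and 103.1 FPKM in FDX1-OE ES and 169.8 and 176.1 FPKM in FDX1-OE DMSO, and at 131.7 and 138.6 FPKM in control ES and 170.8 and 170.4 FPKM in control DMSO. It was lowest in FDX1-OE ES and its DMSO groups overlapped (interaction -0.39, SE 0.07, limma adjusted p = 0.0139). The heat shock count was 0 without control DMSO replicate 2, FDX1-OE DMSO replicate 2 or control ES replicate 2 and 1 without control DMSO replicate 1, FDX1-OE DMSO replicate 1 or either FDX1-OE ES library. Glycolysis had 2 of 17 members lower (median -0.16). LDHA, which makes lactate, was at 360.0 and 385.9 FPKM in FDX1-OE ES and 611.2 and 653.5 FPKM in FDX1-OE DMSO, and at 495.5 and 551.8 FPKM in control ES and 641.8 and 621.8 FPKM in control DMSO (interaction -0.49, SE 0.09, limma adjusted p = 0.0161). GAPDH had an interaction of -0.31. LDHA was lost without control DMSO replicate 2, FDX1-OE DMSO replicate 2, control ES replicate 2 or FDX1-OE ES replicate 1 (limma adjusted p between 0.0613 and 0.0687). GAPDH was lost without these and without either first DMSO replicate (up to 0.111).

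In mitosis 3 of 32 members were lower (median -0.14): PLK1, a kinase of mitotic entry (interaction -0.41), TPX2, a spindle factor (-0.40), and CCNA2, cyclin A2 (-0.38). TPX2 and CCNA2 were called in FDX1-OE cells only. The count was 0 without control DMSO replicate 1, FDX1-OE DMSO replicate 1, control ES replicate 2 or FDX1-OE ES replicate 1, and 1 without control DMSO replicate 2, FDX1-OE DMSO replicate 2, or without FDX1-OE ES replicate 2. Of 36 S phase genes 24 rose in each genotype, where 37.0% of all genes rose in FDX1-OE cells and 25.5% in control cells. The medians were 0.28 and 0.25, with an interaction call for E2F1 alone (0.48, SE 0.10, limma adjusted p = 0.0331). E2F1, which drives S phase genes, was at 136.6 and 131.4 FPKM in FDX1-OE ES and 77.3 and 73.4 FPKM in FDX1-OE DMSO, against 105.5 and 88.6 FPKM in control ES and 75.5 and 76.5 FPKM in control DMSO, and its call held without control ES replicate 1 alone, with adjusted p up to 0.108 otherwise.

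Among genes that promote cell death, 3 of 10 pro-apoptotic BCL2 family members had a higher interaction and 0 a lower one (median 0.33, 10 of 10 estimates above 0), and the count was 2 or 3 without each single library. PMAIP1, which encodes NOXA, was at 49.6 and 51.7 FPKM in FDX1-OE ES and 24.6 and 25.6 FPKM in FDX1-OE DMSO, and at 31.7 and 29.8 FPKM in control ES and 22.2 and 23.0 FPKM in control DMSO. ES was above DMSO in both genotypes and highest in FDX1-OE cells (interaction 0.56, SE 0.08, limma adjusted p = 0.00722). BMF and BCL2L11, both BH3-only proteins, had interactions of 0.58 and 0.41. Of 19 p53 targets 2 were higher, beside 3.25% of all genes, CDKN1A (0.83) and TP53INP1 (0.69), with a median of 0.19. CDKN1A, an inhibitor of the cell cycle, was at 2.53 and 2.6 FPKM in FDX1-OE ES and 0.387 and 0.341 FPKM in FDX1-OE DMSO, and at 0.813 and 1.11 FPKM in control ES and 0.382 and 0.287 FPKM in control DMSO. It was lost without control DMSO replicate 1 (limma adjusted p = 0.0577), and TP53INP1 without control DMSO replicate 2 (0.065), FDX1-OE DMSO replicate 2 (0.0673), control ES replicate 2 (0.0776) or FDX1-OE ES replicate 1 (0.0743).

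In the lists of metal response, copper handling and protein lipoylation, 0 of 5, 1 of 11 and 1 of 12 genes had a called interaction. The share among all genes tested was 4.3%, so these short lists are not set apart by their counts. MT2A, a metallothionein that binds copper and zinc, was at 487.0 and 519.5 FPKM in FDX1-OE ES, 116.6 and 144.4 FPKM in FDX1-OE DMSO, 380.8 and 307.6 FPKM in control ES, and 91.6 and 92.3 FPKM in control DMSO. Its responses were log2 1.95 and 1.88, and the interaction was 0.06 (SE 0.15, limma adjusted p = 0.85). MT1X (0.40, limma adjusted p = 0.165) and the zinc exporter SLC30A1 (0.29, 0.199) were not called either, and the metal response list had 0 of 5 calls, with a median interaction of 0.20 and 5 of 5 estimates above 0. In copper handling 1 of 11 was called, CCS, the copper chaperone of superoxide dismutase, at 32.1 and 33.1 FPKM in FDX1-OE ES and 18.1 and 16.7 FPKM in FDX1-OE DMSO, and at 24.3 and 22.4 FPKM in control ES and 18.3 and 18.1 FPKM in control DMSO. ES libraries were above DMSO libraries in both genotypes, and further so in FDX1-OE cells (interaction 0.53, SE 0.09, limma adjusted p = 0.0125, and 0.0546 without control ES replicate 2). The copper importer SLC31A1 (0.07, SE 0.14) and the copper exporter ATP7A (-0.02, SE 0.13) were not called.

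Protein lipoylation had 1 call in 12, FDX1 itself (interaction 0.38, SE 0.09, limma adjusted p = 0.0469), which held without control DMSO replicate 2 alone, with adjusted p up to 0.149 otherwise. The lipoate synthase LIAS had an interaction of 0.09 (SE 0.13), and DLAT, the part of pyruvate dehydrogenase that carries lipoate, was at 40.3 and 38.7 FPKM in FDX1-OE ES and 54.3 and 59.0 FPKM in FDX1-OE DMSO, and at 47.1 and 49.3 FPKM in control ES and 57.8 and 54.1 FPKM in control DMSO (interaction -0.30, SE 0.09, limma adjusted p = 0.0747, and 0.0386 by voom). Iron-sulfur cluster assembly had 0 calls in 19, complex I 0 in 37, the TCA cycle 1 in 17 (MDH2, above), the MYC network 0 in 12 and plasma cell genes 0 in 7, with medians between -0.01 and 0.07. MYC itself was at 121.8 and 132.4 FPKM in FDX1-OE ES and 186.2 and 190.6 FPKM in FDX1-OE DMSO, and at 137.0 and 155.2 FPKM in control ES and 162.6 and 181.8 FPKM in control DMSO (interaction -0.33, SE 0.10, limma adjusted p = 0.0946, and 0.0368 by voom). In complex I 2 members were called without control ES replicate 1 and 1 without control DMSO replicate 2.

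Both ferritin chains had a higher interaction. FTH1, the ferritin heavy chain, was at 781.1 and 820.7 FPKM in FDX1-OE ES and 367.0 and 369.5 FPKM in FDX1-OE DMSO, and at 575.8 and 514.9 FPKM in control ES and 364.3 and 362.4 FPKM in control DMSO. FTL, the light chain, was at 1005.1 and 1036.6 FPKM in FDX1-OE ES and between 781.7 and 839.0 FPKM in the other 6 libraries. FTH1 rose in both genotypes and FTL in FDX1-OE cells only (interactions 0.54 and 0.40, limma adjusted p = 0.00818 and 0.0111, the second 0.0539 without control ES replicate 2). Both belong to the NRF2 list, in which 3 of 17 members were higher (1 without control ES replicate 2), the third being the cystine transporter SLC7A11 (0.56), and the median was 0.12. In the AP-1 list 4 of 15 members were higher, among them JUND (0.78, SE 0.10, limma adjusted p = 0.00372) and ATF3 (1.05, SE 0.17, limma adjusted p = 0.00914), and TRIB1 was lower. ATF3, a stress-induced repressor, was at 2.65 and 3.09 FPKM in FDX1-OE ES and 0.198 and 0.344 FPKM in FDX1-OE DMSO, and at 0.77 and 0.864 FPKM in control ES and 0.131 and 0.36 FPKM in control DMSO, and by voom it was not called (adjusted p = 0.109). The 4 were 2 without control DMSO replicate 1 or 2, FDX1-OE DMSO replicate 1, control ES replicate 2 or FDX1-OE ES replicate 1.

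Germinal-centre genes other than LMO2 had 1 further call in 28, the ectoenzyme CD38 (0.40, SE 0.08, limma adjusted p = 0.0258), and MHC class II had 2 in 14, HLA-DQA1 (0.49) and HLA-DQB1 (0.31). CD38 held without control ES replicate 1 alone, HLA-DQB1 likewise, and HLA-DQA1 without all but control ES replicate 2 (limma adjusted p = 0.051). Histone genes made in S phase had 2 in 8, H2AC6 and H2BC4, at or below 1.8 FPKM in every library, and these share sequence with other histone genes. H2BC4 lost its call whichever library was left out, and H2AC6 kept it without control ES replicate 1 alone. Neither was called by voom. Genes named for a negative interaction, besides TRIB1, TCL1A and PA2G4, were PRR3 (-0.61), the clock repressor NR1D1 (-0.58), the haematopoietic repressor GFI1B (-0.58), the tubulin TUBA4A (-0.56) and LTV1 (-0.54), which acts in maturation of the small ribosomal subunit. All 5 were called in FDX1-OE cells only. TUBA4A was at 103.2 and 113.6 FPKM in FDX1-OE ES and between 143.7 and 165.3 FPKM in the other 6 libraries, and was lost without control DMSO replicate 1 (limma adjusted p = 0.0583) or FDX1-OE ES replicate 1 (0.0553). Of the 8 libraries left out in turn, the call held in 3 cases for PRR3, 1 for NR1D1, 2 for GFI1B and 3 for LTV1, with adjusted p up to 0.113 otherwise. The strongest positive ones also held SPNS3, a putative lipid transporter, at 13.6 and 13.4 FPKM in FDX1-OE ES and 1.53 and 1.94 FPKM in FDX1-OE DMSO, and at 6.93 and 6.86 FPKM in control ES and 2.0 and 2.54 FPKM in control DMSO (interaction 1.13, SE 0.14, limma adjusted p = 0.00308).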

How the data were processed

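RNA-seq of 8 libraries was used, with 2 in each of 4 groups named by genotype and treatment in the labels. The authors deposited FPKM per gene, and the submitters' processing notes name HISAT2, HTSeq, R 3.2.0 and the build hg19, without their roles. The unit was read from the values. FPKM steps gave whole reads for 100% of genes within 0.02 read, and library totals of 33435438 to 35883528 reads, so that 3 reads on a gene of 1 kb are 0.0836 to 0.0897 FPKM.

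Genes at 1 FPKM or more in at least 2 libraries (9805 of 15597) were taken as log2(FPKM + 1) and fitted with limma 3.58.1 in R 4.3.3 (4 group means, mean trend, 4 residual and 6.6 prior degrees of freedom, Benjamini-Hochberg adjustment). Adding 1 FPKM understates changes of low genes, and can produce or hide an interaction where the genotypes start at different low levels. No exact permutation test was run, because with 2 libraries a side its smallest p is 0.33. Genes were called "FDX1-OE only" or "control only" by the call in each genotype. The slope was an orthogonal fit through the origin, and the test of departures took it as fixed.

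The experiment, its 4 leading genes and all gene lists were chosen with earlier results of these data known. Named genes were FDX1, the 4 leading genes and a list of key genes, the 8 highest and 8 lowest called interactions with a mean of at least 5 FPKM, the 3 smallest p in each class, and up to 2 called members of each list. Other genes are named as members of lists or where said. Alternatives were pseudocounts of 0.1 and 5 FPKM, no filter, a mean of at least 5 FPKM, RLE scaling, no mean trend, a replicate block, voom on recovered reads, other slopes and thresholds, and each library left out. The corrected slope and the slopes within lists were added after seeing the data. The scripts were tested on simulated data. Promoters are RefSeq sequences on GRCh38.p14, matched by symbol, while the reads were mapped to another build. Some genes are not reported here.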

Additional observations from a re-analysis of the deposited data

Results flagged for a closer look

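For the genes named below, the ES response of FDX1-OE cells differed from that of control cells by the limma test of the difference itself (Benjamini-Hochberg adjusted p below 0.05, 4.3% of all genes tested). The values are interactions on the log2(FPKM + 1) scale, and no explanation was tested. Among the leading genes and FDX1 they were LMO2 (1.17), CHAC1 (1.16), HMGCS1 (0.63), TRIB1 (-0.63) and FDX1 (0.38). Among chemokines, cytokines and NF-kB targets they were EBI3 (1.26), CXCL10 (1.2), CXCL11 (1.5), CCL22 (1.60), CCL3 (1.41), TNFSF10 (1.29), LTA (1.25) and TRAF1 (1.15). The antigen presentation and interferon genes were HLA-B (1.09), HLA-E (0.79), HLA-DQA1 (0.49), HLA-DQB1 (0.31), RTP4 (1.41) and IFIT5 (0.88). The stress, ferritin and copper genes were ATF5 (0.83), TRIB3 (0.75), ATF3 (1.05), JUND (0.78), HERPUD1 (0.37), EDEM1 (0.42), SQSTM1 (0.72), FTH1 (0.54), FTL (0.40) and CCS (0.53). The sterol and lipid genes were INSIG1 (0.59), TM7SF2 (0.88) and SCD (0.36). Cell death, cell cycle and histone genes with a positive value were PMAIP1 (0.56), BMF (0.58), CDKN1A (0.83), TP53INP1 (0.69), E2F1 (0.48), H2AC6 (0.89) and H2BC4 (0.58). Growth, mitosis, metabolism and chaperone genes with a negative value were PA2G4 (-0.54), NOLC1 (-0.45), NCL (-0.44), LTV1 (-0.54), PLK1 (-0.41), CCNA2 (-0.38), LDHA (-0.49), GAPDH (-0.31), MDH2 (-0.28), STIP1 (-0.39), HSP90AB1 (-0.36) and FKBP4 (-0.29). Other positive values were those of SPNS3 (1.13), CD68 (1.1), P2RX5 (0.65), TMSB4X (0.57), CCDC107 (0.55), RGS8 (0.54) and CD38 (0.40). Other negative values were those of TCL1A (-0.56), TUBA4A (-0.56), LEF1 (-0.44), PRR3 (-0.61), NR1D1 (-0.58) and GFI1B (-0.58).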

How the results depend on the processing

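The interaction had 422 calls (319 higher, 103 lower). A pseudocount of 0.1 FPKM gave 222 (165 and 57), no filter 176 (158 and 18), no mean trend 278 (29 lower), voom 639 (244 lower), and RLE scaling 274 lower. Leaving out single libraries gave 93 to 625 calls, 89 to 474 higher and 4 to 151 lower. Without single libraries the drug response calls in FDX1-OE cells lay between 4353 and 5527 (5510 with all), and the drug response calls in control cells between 2522 and 3744 (3767 with all). The 50 differences in DMSO became 31 with a pseudocount of 5 FPKM, 2 with no filter, 82 by voom, and 13 to 66 without single libraries.

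The 26 departures from scaling became 54 with a pseudocount of 5 FPKM, 5 with no filter, 10 with no mean trend, 108 by voom, 44 with the corrected slope, and 0 to 44 without single libraries. The slope of 1.49 was 1.37 to 1.56 without single libraries, 1.3 when corrected and 1.2 by ordinary least squares. Larger responses (222) became 119 with a pseudocount of 0.1 FPKM, 98 with no filter, 49 at an adjusted p below 0.01, and 61 to 206 without single libraries. Smaller responses (0) became 1 with a pseudocount of 5 FPKM, 3 with RLE scaling, 8 by voom, and 0 to 7 without single libraries. Opposite responses (12) became 4 with no filter, 19 with RLE scaling, 26 by voom, 1 at an adjusted p below 0.01, and 2 to 22 without single libraries. The response class FDX1-OE only (174) became 87 with a pseudocount of 0.1 FPKM, 74 with no filter, 91 with no mean trend, 289 by voom, 25 at an adjusted p below 0.01, 80 with the control interval inside 1.2 times, and 30 to 357 without single libraries. Responses in control cells only (14) became 6 with a pseudocount of 0.1 FPKM, 0 with no filter, 3 with no mean trend, 42 by voom, 0 at an adjusted p below 0.01, and 0 to 38 without single libraries. The cause of these shifts was not tested.

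With the replicate block there were 526 interaction calls, 73 departures from scaling, 20 opposite responses and 37 in control cells only. Deviations of same-numbered libraries correlated between -0.18 and 0.18. With 2 libraries in each group this cannot decide whether same-numbered libraries were paired, and the labels do not say what the number marks. With RLE scaling lower calls outnumbered the 251 higher ones, and the interferon list's median interaction changed sign with the scale (-0.28 by voom, 0.27 with a pseudocount of 5 FPKM). Of the 64 called genes picked by the naming rules, 52 were called with a pseudocount of 0.1 FPKM, 24 with no filter, 61 with RLE scaling, 64 with the replicate block and 53 by voom. With 2 libraries in each group, single libraries decide many calls.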
